A study of Homo sapiens with 4 samples.

Results

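The promoters described here belong to 6 genes of the endoplasmic reticulum (ER) stress response, HSPA5, XBP1, ATF4, DDIT3, HERPUD1 and TRIB3. Counted for each are the H3K9ac regions, stretches called as enriched for acetylation of histone H3 at lysine 9, that reach within 5 kb of 1 start of each gene on hg19. By this rule 29 of 39303 regions belonged to the set in cells with an shRNA against RBBP4 (shRBBP4), and 20 of 26828 in cells with a control shRNA (shNT). The cells were T98G, an established line from a human glioblastoma, used at passage 4, and lentivirus delivered each shRNA. RBBP4 is a histone-binding protein that is found in histone deacetylase complexes among others. Each shRNA had 1 H3K9ac library, so no difference below has a replicate check, and no test across groups was made. The level of RBBP4, the input libraries and the sequencing depth were not analysed here.

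Unfolded protein in the ER activates membrane sensors, which raise the output of ER chaperones and lower the load of new protein. HSPA5 encodes BiP, the main ER chaperone, and XBP1, ATF4 and DDIT3 encode transcription factors of the response. HERPUD1 acts in the degradation of ER proteins, and TRIB3 encodes a pseudokinase that is a target of ATF4 and of the DDIT3 product CHOP. H3K9ac is a mark of active promoters and is typically found on the nucleosomes that flank a transcription start.

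The promoter sequences of the genes carry different stress elements, and the 4 with an ER stress element or a near match to it are shown. The sequences are from RefSeq (GRCh38.p14), cover the 250 bases before the first start listed for each gene, and run 5′ to 3′ along the gene's strand. HSPA5 lies at chr9:125241344-125241593 on the minus strand, XBP1 at chr22:28800570-28800819 on the minus strand, DDIT3 at chr12:57520515-57520764 on the minus strand and HERPUD1 at chr16:56931892-56932141 on the plus strand. Capitals mark the matches to the motifs given in the next paragraph.
HSPA5: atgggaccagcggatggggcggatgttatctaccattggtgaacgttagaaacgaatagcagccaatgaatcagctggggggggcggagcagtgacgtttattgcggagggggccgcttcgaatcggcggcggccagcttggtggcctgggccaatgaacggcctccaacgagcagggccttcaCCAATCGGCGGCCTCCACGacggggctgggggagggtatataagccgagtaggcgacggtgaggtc
XBP1: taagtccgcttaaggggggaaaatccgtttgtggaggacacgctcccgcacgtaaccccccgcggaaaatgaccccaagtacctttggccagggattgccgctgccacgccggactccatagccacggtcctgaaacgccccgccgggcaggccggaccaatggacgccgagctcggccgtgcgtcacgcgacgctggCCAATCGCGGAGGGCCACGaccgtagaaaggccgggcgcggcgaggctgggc
DDIT3: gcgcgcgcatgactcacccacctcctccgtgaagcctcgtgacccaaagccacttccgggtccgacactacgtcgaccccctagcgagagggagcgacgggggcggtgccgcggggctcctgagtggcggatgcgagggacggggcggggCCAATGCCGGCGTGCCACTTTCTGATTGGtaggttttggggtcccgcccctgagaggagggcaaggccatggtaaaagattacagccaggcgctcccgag
HERPUD1: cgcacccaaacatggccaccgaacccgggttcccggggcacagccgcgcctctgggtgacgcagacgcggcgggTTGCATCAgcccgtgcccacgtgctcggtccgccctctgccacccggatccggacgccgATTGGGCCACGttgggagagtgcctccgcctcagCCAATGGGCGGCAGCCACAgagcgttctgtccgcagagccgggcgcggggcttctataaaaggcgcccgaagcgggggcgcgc

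The ER stress element, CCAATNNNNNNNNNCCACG, was searched on both strands of the 300 bases around each start, 250 before and 50 after. It was found at HSPA5, from -66 to -48 bp of the start, and at XBP1, from -52 to -34 bp, while 27 of 35116 promoters in the table (0.0769%) held it. XBP1 has 2 listed starts, and only the first had the element. A gene was counted if any of its listed starts had a match, while the shares over all promoters count each start, 35116 for 27305 genes. With at most 1 mismatch outside the 9 free bases, matches were also found at DDIT3, where 2 overlapping ones lie on opposite strands, and at HERPUD1. Of all promoters, 545 (1.55%) held such a match. HERPUD1 also held the ER stress element II, ATTGGNCCACG, which 19 of all promoters held (0.0541%). It further held the core of the composite site bound by C/EBP and ATF factors, TGATGNAA, which 1270 of all promoters held (3.62%). None of the 6 genes held the UPRE core TGACGTGG, which 256 of all promoters held (0.729%). The bases before the ATF4 and TRIB3 starts held none of these motifs. The ER stress element was first described at promoters of this family, HSPA5 among them, so the matches are a description and not independent support. These sequences are on another build than the regions, and their starts were not matched to the hg19 starts, so no distance between a motif and a region was measured. By composition, the 250 bases were 62.0% G and C at HSPA5, 67.6% at XBP1, 58.4% at ATF4, 67.2% at DDIT3, 71.6% at HERPUD1 and 78.8% at TRIB3, against a median of 58.0% over all promoters.

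All 6 promoters had an H3K9ac region within 5 kb in shRBBP4 cells, and all but TRIB3 had one in shNT cells. With a window of 10 kb, all 6 had one in shNT cells too. The share of all promoters with a region in each list was not determined, as no hg19 annotation was used. These counts thus have no background, and the shRBBP4 list is the longer one. ATF4, HSPA5 and XBP1 had regions among the highest-scoring 10% of both lists, while HERPUD1 and TRIB3 had the fewest regions and the least covered length of the 6. The regions within 5 kb covered 10.9 kb in shRBBP4 and 8.01 kb in shNT, a ratio of 1.37. Over the whole lists the ratio of covered length was 1.51. The ratio of region numbers was 1.45 (95% interval 0.793 to 2.70, counting error only), against 1.46 for the whole lists (1.44 to 1.49). The excess of regions at these promoters thus differed from that of the whole lists by less than counting error. The interval treats regions as independent, which those at 1 promoter are not, so it is too narrow. The ratio also depends on how stretches were divided, and was 0.875 with regions joined across 1 kb. At the promoters the median region was 246 bp wide in shRBBP4 and 242 bp wide in shNT, against 213 and 210 bp over the whole lists.

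**Figure D1:**
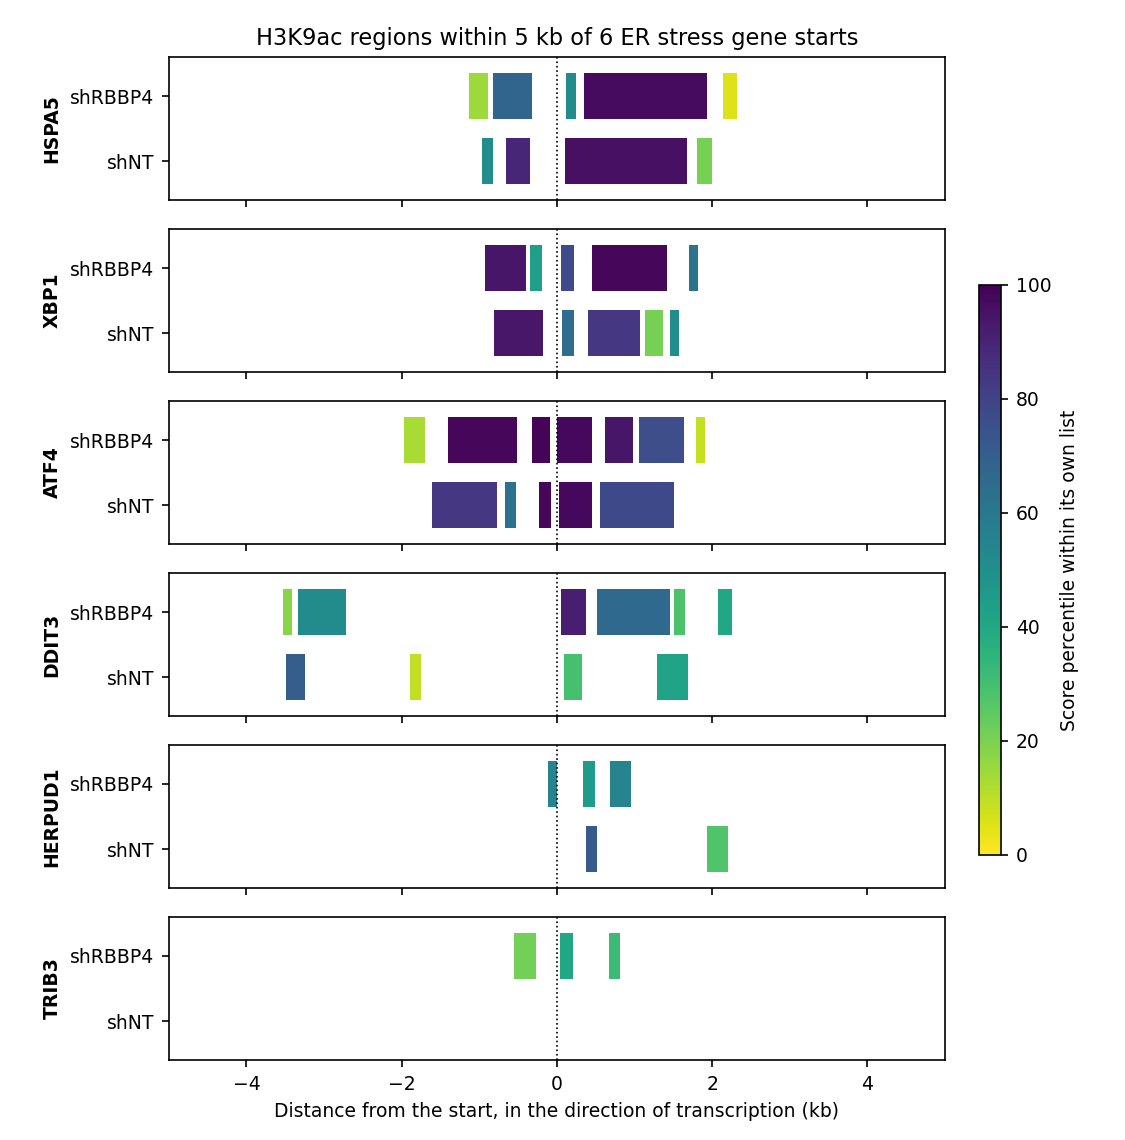
H3K9ac regions within 5 kb of each start, in the direction of transcription (x axis, kb), with shRBBP4 above shNT in each panel and colour giving the score percentile of the region within its own list. Regions flank the start on both sides at HSPA5, XBP1 and ATF4 in both libraries, and TRIB3 has 3 regions in shRBBP4 and none in shNT.

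Each region carries the authors' own score, of unstated scale, which served only to rank it within its list. A percentile of 90 means that 90% of the list scored lower, with ties counted at their middle. The lists differ in length and hold many tied scores, with 2104 distinct values in shRBBP4 and 1301 in shNT. A difference in percentile between the libraries is therefore a difference in rank and not in acetylation.

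At HSPA5, the chaperone gene, the body of the mark lay downstream of the start and was nearly the same in both libraries. The strongest region spanned 1588 bp in shRBBP4 (chromosome 9, 128001727 to 128003314, hg19) and 1574 bp in shNT (128001986 to 128003559). It ranked at percentile 96.9 among shRBBP4 regions and 95.8 among shNT regions, and both had 1329 bp in common. By width they stood at percentiles 99.6 and 99.7 of their lists. Few regions of either library were thus wider. In shRBBP4 a separate region from 117 to 247 bp, at percentile 51.8, lay inside the stretch of the shNT region. Past the body, weak regions followed from 2135 to 2315 bp in shRBBP4, at 5.34, and from 1803 to 1996 bp in shNT, at 21.0. Upstream, the shRBBP4 region from -824 to -318 bp stood at percentile 67.7, and the shNT region inside the same stretch, from -650 to -341 bp, at 89.3. The next one outward stood at 14.7 in shRBBP4 and 51.2 in shNT. The upstream regions thus ranked lower in shRBBP4, while that downstream body did not. They lie on the side where the RefSeq table has HSPA5-DT, a noncoding RNA gene transcribed away from HSPA5. In all, 5 shRBBP4 regions covered 2653 bp and 4 shNT regions covered 2222 bp, a ratio of 1.19.

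At XBP1, whose mRNA is spliced by the sensor IRE1 to give an active factor, the libraries differed in how the same stretch was divided. Downstream, 1 shRBBP4 region from 448 to 1417 bp (chromosome 22, 29195143 to 29196112) stood at percentile 98.2. The same stretch held 2 shNT regions, from 398 to 1071 bp at percentile 84.1 and from 1140 to 1369 bp at 21.0. Upstream the division was the other way round. One shNT region from -813 to -182 bp (29196742 to 29197373), at percentile 93.9, faced 2 shRBBP4 regions from -920 to -397 bp and from -344 to -188 bp, at 94.5 and 43.9. The narrow region just past the start hardly moved, from 58 to 219 bp in shRBBP4 and from 60 to 225 bp in shNT, at percentiles 77.5 and 65.0. The outermost downstream regions, from 1699 to 1819 bp in shRBBP4 at 61.3 and from 1456 to 1578 bp in shNT at 51.2, overlapped none of the other library. Both libraries had 5 regions, which covered 1934 bp in shRBBP4 and 1825 bp in shNT, a ratio of 1.06.

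ATF4, which encodes the factor that is translated when the PERK branch is active, had the highest-ranking region of the 6 promoters in both libraries. That region lay just before the start, from -320 to -94 bp (chromosome 22, 39916249 to 39916475) at percentile 98.9 in shRBBP4, and from -234 to -71 bp (39916335 to 39916498) at 98.2 in shNT. It was narrow, 227 bp wide in shRBBP4 and 164 bp in shNT. The region just after the start ran from 8 to 451 bp in shRBBP4 and from 30 to 446 bp in shNT, and both stood at percentile 97.7. The start thus lay between a pair of strong regions in both libraries. The downstream ones had 417 bp in common, all of the shNT region, and the upstream ones 141 bp, 62.1% of the shRBBP4 region and 86.0% of the shNT one. Farther out, the shRBBP4 region from -1408 to -518 bp stood at 98.1 and the shNT region from -1612 to -773 bp at 84.1. Downstream, a single shNT region from 559 to 1514 bp, at 77.8, faced 2 shRBBP4 regions from 615 to 981 bp and from 1052 to 1642 bp, at 94.2 and 76.5. At either end shRBBP4 had a weak region that overlapped none of shNT, at percentiles 13.0 and 8.79. The RefSeq table also has MIEF1, a gene on the same strand, within 5 kb of ATF4. Which gene the outer regions belong to was not tested. The 7 shRBBP4 regions covered 2901 bp and the 5 shNT regions 2519 bp, a ratio of 1.15.

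DDIT3, which encodes CHOP, a factor linked to cell death under prolonged stress, differed most in covered length among the 5 promoters with regions in both libraries. The region just past the start ran from 51 to 376 bp in shRBBP4 (chromosome 12, 57913924 to 57914249), at percentile 91.5, and from 93 to 318 bp in shNT (57913982 to 57914207), at 29.4. This difference of 62.1 percentile points stood at percentile 96.1 of the differences over all 19669 pairs of overlapping regions. It was the largest of the 19 pair differences at these promoters and was picked after seeing them. Near the other end stood an upstream pair of DDIT3 (-52.6 points, percentile 4.15) and a pair of XBP1 (-50.0 points, percentile 4.85). With the shRBBP4 list cut to its 26828 highest-scoring regions, the length of the shNT list, the shRBBP4 region stood at 87.5. The whole of the shNT region lay inside the shRBBP4 one, so the position was shared and the rank was not. Beyond it, shRBBP4 had a 937 bp region from 519 to 1455 bp at percentile 66.3, and shNT a 404 bp region from 1284 to 1687 bp at 42.0. Further shRBBP4 regions from 1515 to 1654 bp and from 2080 to 2250 bp stood at 28.4 and 40.5. Downstream of the start, shRBBP4 regions thus covered 1574 bp and shNT regions 630 bp.

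Upstream of DDIT3 the ranks ran the other way. There the shNT region from -3494 to -3241 bp (chromosome 12, 57917541 to 57917794), at percentile 70.3, had the highest score of shNT within 5 kb of DDIT3. The shRBBP4 regions that overlapped it, from -3341 to -2720 bp and from -3530 to -3410 bp, stood at 51.8 and 17.7. A weak shNT region from -1894 to -1753 bp, at 9.14, overlapped no shRBBP4 region. These upstream regions lie on the side where the RefSeq table has MBD6, a neighbour transcribed away from DDIT3, and which gene they belong to was not tested. Within 1 kb of the DDIT3 start the best percentiles were 91.5 in shRBBP4 and 29.4 in shNT. Within 5 kb of the start, 6 shRBBP4 regions covered 2317 bp and 4 shNT regions 1026 bp, a ratio of 2.26.

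At HERPUD1, a direct target of the response, few regions were called in either library and the best of them ranked higher in shNT. The shared position lay downstream, from 338 to 495 bp in shRBBP4 (chromosome 16, 56966086 to 56966243) and from 371 to 518 bp in shNT (56966119 to 56966266). It stood at percentile 45.7 in shRBBP4 and 71.9 in shNT, with 125 bp in common. In shRBBP4 a 116 bp region from -113 to 2 bp, at 54.8, just reached past the start, and another from 688 to 951 bp stood at 54.7. The 116 bp region had the narrowest width in the shRBBP4 list and overlapped no shNT region. The other shNT region lay farther in, from 1940 to 2204 bp, at 27.5. The 3 shRBBP4 regions covered 538 bp and the 2 shNT regions 413 bp, a ratio of 1.30. In lists of equal length the best shRBBP4 region of HERPUD1 stood at 33.8, farther below the shNT one.

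Within 5 kb of the start, TRIB3 was the single promoter of the 6 with regions in shRBBP4 and none in shNT. The shRBBP4 regions ran from -555 to -266 bp, from 37 to 201 bp and from 675 to 816 bp (chromosome 20, 360753 to 361042, 361345 to 361509 and 361983 to 362124). They stood at percentiles 21.2, 40.5 and 32.0, so all lay below the middle of the list. In shNT the nearest region lay 7619 bp from the closest of them and outside the 5 kb window. A list of called regions does not show whether weaker signal was present below the threshold, and the thresholds and depths are unknown. Such clusters were common, since 6337 of 18106 joint clusters (35.0%) held shRBBP4 regions alone. The best region of these clusters had a median percentile of 40.5, equal to that of TRIB3. By extent TRIB3 was less usual, as its span of 1372 bp stood at percentile 93.9 among them, and 9.44% of them held 3 or more regions. This extent depends on the length of the list. The region from -555 to -266 bp scored 5.22, below the lowest score of 6.20 in the shRBBP4 list cut to the length of the shNT list.

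**Figure D2:**
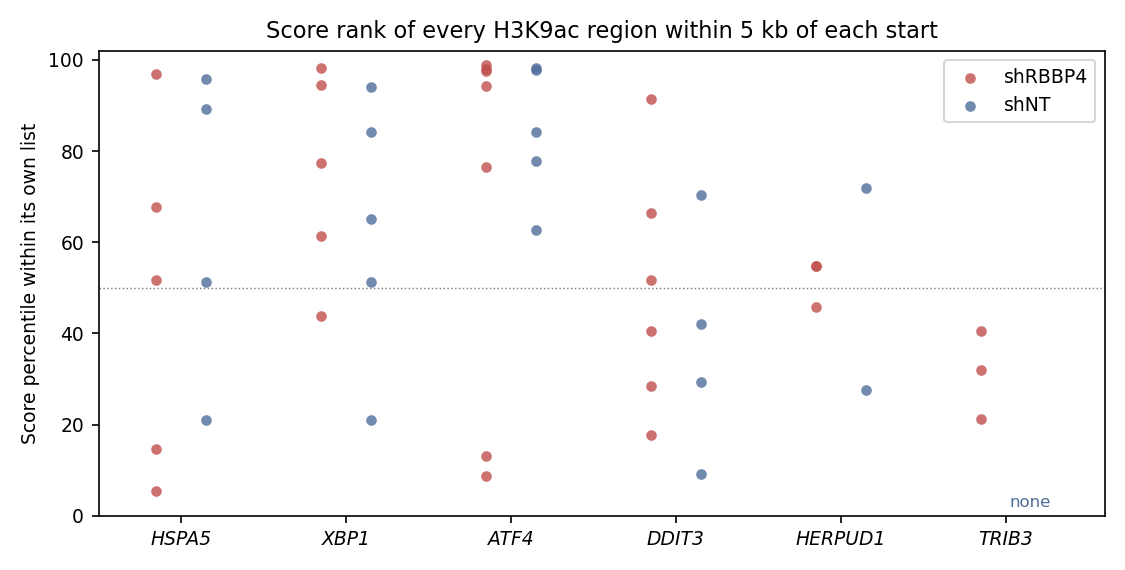
Score percentile of every region within 5 kb of each start (y axis), with shRBBP4 points left of shNT points for each gene; the dotted line is at 50. The best regions of HSPA5, XBP1 and ATF4 stand at 93.9 or higher in both libraries, and all TRIB3 points lie below 50. The best region of DDIT3 stands at 91.5 in shRBBP4, just past the start, and at 70.3 in shNT, at another position upstream.

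Ordered by their best region, the promoters in shRBBP4 ran from ATF4 (98.9) through XBP1 (98.2), HSPA5 (96.9), DDIT3 (91.5) and HERPUD1 (54.8) to TRIB3 (40.5). In shNT the order was ATF4 (98.2), HSPA5 (95.8), XBP1 (93.9), HERPUD1 (71.9) and DDIT3 (70.3). XBP1 and HSPA5 changed places, as did DDIT3 and HERPUD1. The best regions of DDIT3 lay at unlike positions, just past the start in shRBBP4 and from -3494 to -3241 bp in shNT. Within 1 kb of its start, the best DDIT3 region in shNT stood at 29.4. With 1 library each, no spread between replicates shows which neighbours in these orders differ. The chaperone gene and 2 of the factors thus stood first in both lists, each with a region above percentile 90. DDIT3 also had one in shRBBP4, but not with lists of equal length.

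**Figure D3:**
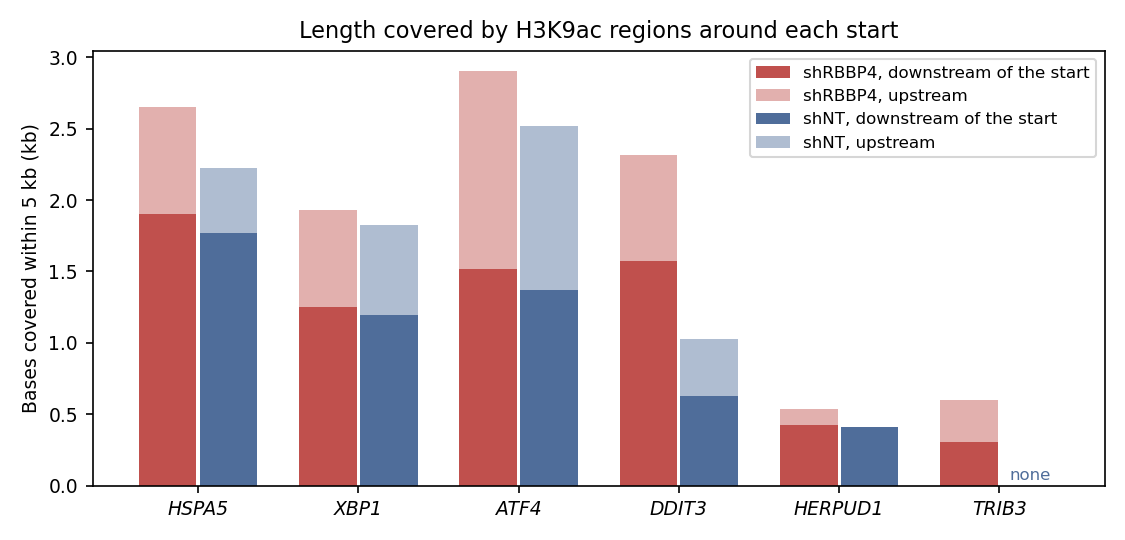
Length covered by H3K9ac regions within 5 kb of each start (y axis, kb), with shRBBP4 bars left of shNT bars and each bar divided into bases downstream (dark) and upstream (light) of the start. Coverage ran from 2901 bp at ATF4 to 538 bp at HERPUD1 in shRBBP4, and from 2519 bp at ATF4 to 0 at TRIB3 in shNT.

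To set the promoters beside the rest of the genome, regions of both lists were joined across gaps of up to 1 kb into joint clusters. The clusters of the genome were not sorted by whether they lie at a promoter, so shares over all clusters come from an unlike set. The 6 promoters held 7 clusters, of which 6 (85.7%) had regions of both libraries, against 57.7% of all 18106 clusters. DDIT3 had 2 of them, 1 on each side of its start. All 6 shared clusters covered more bases in shRBBP4 than in shNT, as did 71.9% of the 10454 shared clusters of the genome. The ratio of covered bases stood at percentile 41.9 of all shared clusters at HSPA5, 32.4 at XBP1 and 39.0 at ATF4. It stood at 48.4 at HERPUD1, and at 83.6 and 71.9 at the downstream and upstream clusters of DDIT3. The quartiles of this ratio over all shared clusters were 0.958 and 2.002, and only the downstream DDIT3 cluster, at 2.50, lay outside them.

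**Figure D4:**
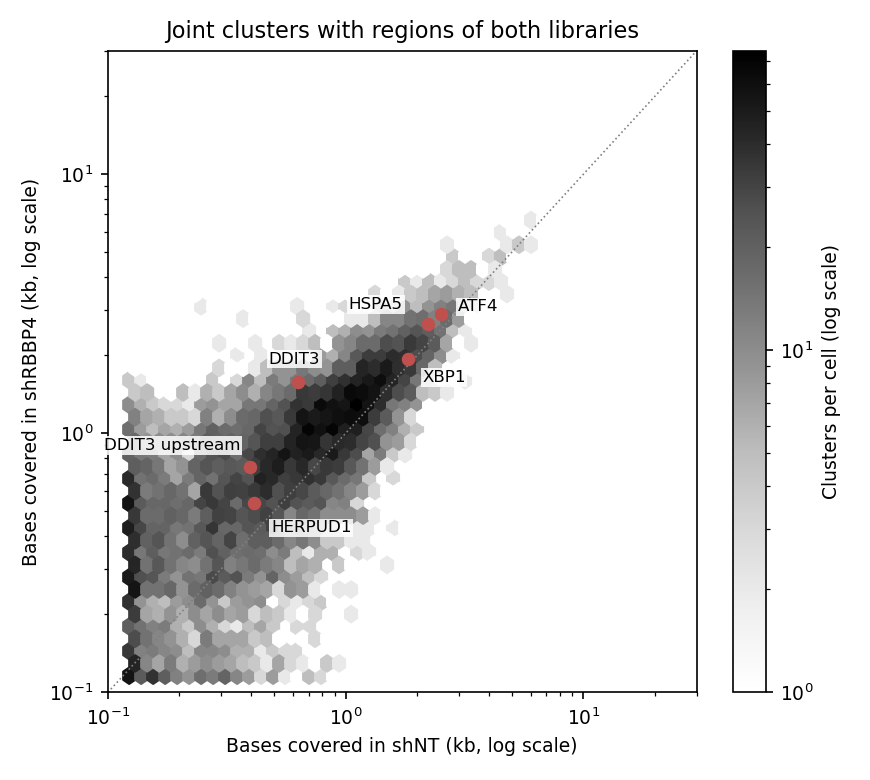
Bases covered in shRBBP4 (y axis) against shNT (x axis) for all joint clusters with regions of both libraries, on log scales in kb; grey cells count clusters, red points are the 6 clusters at the ER stress promoters and the dotted line marks equal length. All 6 points lie above the line, with the DDIT3 clusters farthest from it, at ratios of 2.50 and 1.88.

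A region above percentile 90 of shRBBP4 was found in 4 of the 6 shared clusters, against 27.3% of all shared clusters. One above percentile 90 of shNT was found in 3 of 6, against 20.9%. Whether promoters in general pass as often was not tested, as the shares over all shared clusters are not limited to promoters. The clusters at ATF4, HSPA5 and XBP1 passed in both libraries. Their spans were 3875, 3447 and 2740 bp, against a median of 1498 bp over all shared clusters and of 2392.5 bp over the 1506 clusters that passed in both libraries. The ratio of covered bases had a median of 1.17 over those 1506 clusters, close to the 1.15, 1.19 and 1.06 of these promoters. The best percentile was higher in shRBBP4 in 4 of 6 clusters, against 63.6% of all shared clusters. The upstream DDIT3 cluster and HERPUD1 were the exceptions.

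Most regions at the promoters were shared. Of the shRBBP4 regions, 19 of 29 overlapped an shNT region by at least 1 bp (65.5%, exact 95% interval 45.7 to 82.1), against 50.04% of the whole list. Of the shNT regions, 17 of 20 overlapped an shRBBP4 region (85.0%, 62.1 to 96.8), against 77.0% of the whole list. The background lies inside the interval in both cases, and regions at 1 promoter are not independent. With reciprocal overlap of 50%, 10 regions of each library were matched, and within 1 kb 26 of 29 shRBBP4 and 20 of 20 shNT regions had a counterpart. The 3 without one were those of TRIB3. Among the 19 overlapping pairs the rank was higher in shRBBP4 in 9 (47.4%), with a median difference of -0.0304 percentile points. Over all pairs it was higher in 57.7%, with a median of 3.66. Each pair was an shRBBP4 region and the shNT region it shared most bases with, so the same shNT region could stand in several pairs. At HSPA5 the shNT region from 107 to 1680 bp did so, with differences of 1.15 and -44.0 points. The share of pairs thus also depends on how a stretch was divided into regions, and no difference from the whole lists is drawn from it.

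Base by base, the libraries had 1992 bp in common at HSPA5, which made up 75.1% of the bases covered in shRBBP4 and 89.6% of those in shNT. At XBP1 the 1588 shared bp were 82.1% and 87.0%, and at ATF4 the 2166 shared bp were 74.7% and 86.0%. At DDIT3 724 bp were shared, 31.2% of the shRBBP4 bases and 70.6% of the shNT bases. At HERPUD1 the shared 125 bp were 23.2% and 30.3%. The 3 promoters with a region above percentile 90 in both lists thus had the largest shares of the 5, and wide regions overlap more easily than narrow ones.

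The start itself was mostly free of regions. No start base was covered in shNT, and only that of HERPUD1 was covered in shRBBP4, by the edge of a 116 bp region. At ATF4 the uncovered gap across the start measured 101 bp in shRBBP4 and 100 bp in shNT, at XBP1 245 and 241 bp, and at HSPA5 434 and 447 bp. These gaps were alike in the 2 libraries, within 13 bp. At TRIB3 the gap was 302 bp in shRBBP4. At DDIT3 it was far wider, 2770 bp in shRBBP4 and 1845 bp in shNT, since no region lay just upstream. Gaps of up to 1 kb between neighbouring regions measured 221 bp in shRBBP4 and 217 bp in shNT at the median over the whole lists. Among these, the gaps in shRBBP4 and shNT stood at percentiles 22.4 and 21.8 at ATF4, 54.2 and 54.2 at XBP1, and 77.6 and 78.1 at HSPA5. That of TRIB3 stood at 63.5 in shRBBP4. Gaps of these sizes are thus usual in these data, while the DDIT3 gaps exceeded 1 kb and were not ranked.

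**Figure D5:**
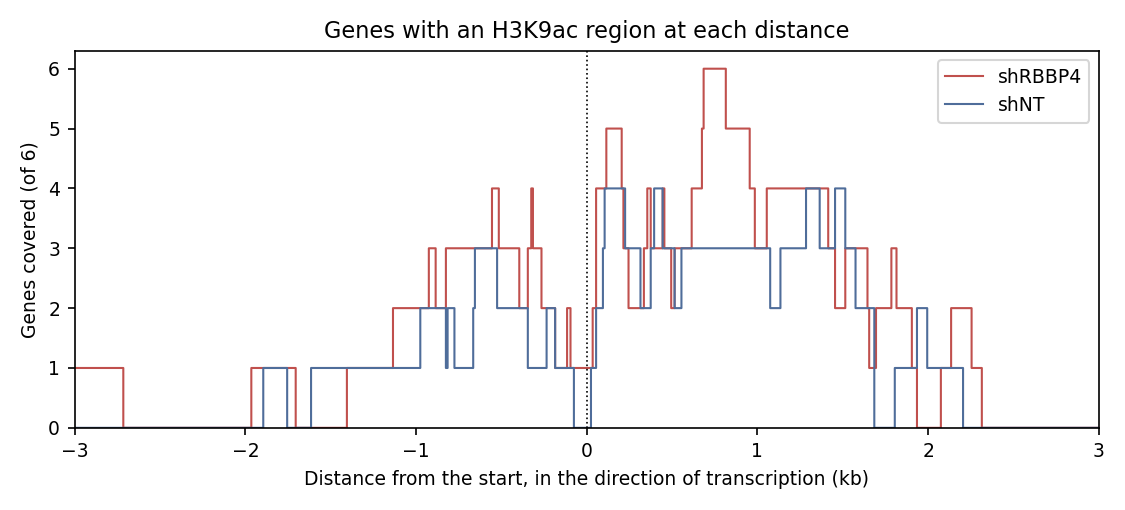
Number of the 6 genes with a region at each distance from the start (x axis, kb, in the direction of transcription; y axis, genes), for shRBBP4 and shNT. Coverage dips to 1 gene in shRBBP4 and 0 in shNT at the start, and all 6 genes are covered in shRBBP4 between 690 and 810 bp downstream.

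More of the mark lay downstream than upstream. Downstream of the starts, regions covered 6977 bp in shRBBP4 and 5377 bp in shNT, and upstream 3963 bp and 2628 bp. At steps of 10 bp, all 6 genes were covered in shRBBP4 from 690 to 810 bp past the start, while no distance was covered in more than 4 genes in shNT. The shNT list is shorter and has no TRIB3 region in the window, so at most 5 genes could be covered there. The shRBBP4 regions of TRIB3 and HERPUD1 at this distance stood at percentiles 32.0 and 54.7. Upstream, no more than 4 genes were covered at once in shRBBP4 and 3 in shNT.

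The number of regions differed between the libraries by chromosome, and these values stand beside those of the promoters. On chromosome 16, with HERPUD1, the ratio of shRBBP4 to shNT regions was 1.17 (1.09 to 1.26). It was 1.46 (1.36 to 1.57) on chromosome 12, with DDIT3, and 1.53 (1.40 to 1.67) on chromosome 9, with HSPA5. On chromosome 22, with XBP1 and ATF4, it was 1.64 (1.50 to 1.81), and on chromosome 20, with TRIB3, 1.71 (1.59 to 1.85). By covered length, the ratios at HSPA5, XBP1 and ATF4 (1.19, 1.06 and 1.15) were below those of their chromosomes (1.69, 1.69 and 1.69), while those of DDIT3 (2.26) and HERPUD1 (1.30) were above their own (1.51 and 1.16). These sets are unlike, since the chromosome values also count clusters called in 1 library alone, while these promoters hold shared clusters. Within 1 Mb of the DDIT3 start the ratio of region numbers was 1.33 (0.949 to 1.87), and within 1 Mb of TRIB3 it was 1.49 (1.01 to 2.22). It was 1.425 (0.935 to 2.19) at HSPA5, 1.35 (0.917 to 1.99) at XBP1, 1.54 (1.08 to 2.19) at ATF4 and 1.18 (0.828 to 1.68) at HERPUD1. The part of copy number, depth or background in these values was not tested.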

How the data were processed

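The authors deposited 1 list of called H3K9ac regions for each of the 2 H3K9ac libraries, with a score per region as the authors' own value. Both track lines name macs2, per the file headers. The submitters' processing notes instead list SICER, beside BWA, Picard and bcl2fastq 2.15.0, and the build as hg19 or GRCh37, none with a role. The threshold, the depth and whether the input was used are not given in the sources. A stricter threshold or deeper library changes how many regions are listed.

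Starts of the 6 genes on hg19 were fixed by the rule that defines the set, and strands came from the RefSeq promoter table (GRCh38.p14), in which all 6 symbols matched. Region starts are counted from 1. Scores became percentiles within each list. Clusters join regions across gaps of up to 1 kb. Intervals at 95% are exact, by Clopper-Pearson for shares and conditional on the sum for ratios of counts, and cover counting error only. The functions were checked on simulated lists. All regions within 5 kb are named or counted, and values are given in full for the strongest and widest. The genes, lists and motifs were chosen with earlier results of these data known, and the pair differences and 1 Mb windows after seeing these values. The exons under the regions, and other genes of the pathway, were not analysed here, as no hg19 annotation was used. The software was Python 3.11.15 with scipy 1.17.1, pandas 2.3.3, numpy 2.4.6 and matplotlib 3.10.9.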

Additional observations from a re-analysis of the deposited data

How the results depend on the processing

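No paired analysis was possible because H3K9ac was measured in a lone library for each shRNA. Of 122 alternative values, 100 stayed within the limit set for them. Within 1 kb of the starts there were 13 shNT regions, 6262 bp were covered in shRBBP4 and 4516 bp in shNT, with 3846 and 2896 bp downstream and 2416 and 1620 bp upstream, all over a smaller window. The higher-scoring 50% of the list left 17 shRBBP4 regions. Joining across 1 kb gave 7 regions in shRBBP4 and 8 in shNT, with median widths of 2200 and 930 bp. The shared share was 34.5% of shRBBP4 and 50% of shNT regions with reciprocal overlap, and 89.7% and 100% within 1 kb. In lists of equal length shRBBP4 had 21 regions, a ratio of 1.05 to shNT, and TRIB3 stood at percentile 12.9. There, 3 promoters of each library had a region above percentile 90. Clusters joined across 0.5 kb gave 2 of shNT alone, where 1 kb gave 0. With 1 mismatch, 4 genes held an ER stress element, where the exact search found 2. Leaving out the upstream DDIT3 regions, an alternative chosen after seeing the data, gave 27 and 18 regions, 10197 and 7609 bp. As depth is unknown, numbers and ranks of regions cannot be read as amounts of acetylation.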
